A study of Mus musculus with 3 samples.

Results

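Interferon-stimulated genes are the genes that cells switch on after interferon binds its receptors. A set of 44 of them was followed through 3 single-cell RNA libraries of mouse ear epidermis enriched for Langerhans cells (LCs), which live in that tissue and present antigen. The members were chosen by gene symbol, and all 44 symbols were listed among the 34289 features of the files. The mice were males of the outbred CD1 stock, and each group was 1 library. The untreated mice received only a depilatory cream, the second group croton oil, which irritates skin, mixed with acetone and olive oil, and the third repeated punches with a needle array. Treated skin was collected 48 hours after the first treatment, and dead cells were removed before LCs were enriched magnetically. The number of animals behind each library is not given in the sources used here. With 1 library per group no difference between groups could be tested, so the intervals given here cover counting error only and say nothing of the spread between mice.

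Type I interferons signal through the receptor chains IFNAR1 and IFNAR2 to a complex that holds STAT2 and IRF9 and binds the interferon-stimulated response element (ISRE) in promoters. Interferon-gamma signals through IFNGR1 and IFNGR2, and many of its target genes carry the gamma-activated sequence (GAS). The genes that follow encode antiviral enzymes, sensors of foreign nucleic acid, membrane proteins that hinder virus entry, large GTPases and chemokines, together with brakes such as USP18.

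The promoters of a few members are shown first, because they carry these elements in different forms. RefSeq promoter windows, 250 bases before to 50 after a gene's start in the mouse build GRCm38.p6, were matched for 32 of the 44 members. The other 12 (Rigi, Zbp1, Oas2, Usp18, Mx1, Mx2, Parp14, Rtp4, Gbp4, Iigp1, Ly6a and Ly6e) were not analysed here. The ISRE was searched as GAAA, any 2 bases and GAAA again, and the GAS as TTC, any 3 bases and GAA, each on both strands. An ISRE match was present in 20 of the 32 members (62.5%), against 3.99% of 27025 genes with a promoter window. A GAS match was present in 11 (34.4%), against 9.55% of the genes. Both motifs were found in 7 members, and in Bst2 and Ifitm3 the matches overlapped. Neither motif was found in 8 members: Irf7, Irf9, Oasl1, Oasl2, Xaf1, Ifi44, Ifitm1 and Cxcl9. All 6 matched GTPases of the interferon-gamma group held an ISRE, and 3 of them also a GAS. A match is a string of letters and not a shown binding site. The 5 stretches printed here run from 110 bases to 1 base before the start, on the strand of the gene, with the matches in capitals. Isg15 (chr4:156200819-156200928, minus strand) holds 3 overlapping ISRE matches, and Ifit1 (chr19:34640779-34640888, plus strand) holds 2 on the opposite strand. Ifitm2 (chr7:140955962-140956071, minus strand), the member with the highest level in LCs, holds 1. Gbp7 (chr3:142530226-142530335, plus strand) holds 1 ISRE and 2 GAS matches, and Irf1 (chr11:53769904-53770013, plus strand) holds 1 GAS and no ISRE.
Isg15: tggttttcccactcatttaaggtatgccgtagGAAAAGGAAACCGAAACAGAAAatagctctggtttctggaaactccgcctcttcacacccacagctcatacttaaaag
Ifit1: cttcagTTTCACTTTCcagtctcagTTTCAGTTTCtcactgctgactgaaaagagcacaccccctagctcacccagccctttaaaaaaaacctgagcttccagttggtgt
Ifitm2: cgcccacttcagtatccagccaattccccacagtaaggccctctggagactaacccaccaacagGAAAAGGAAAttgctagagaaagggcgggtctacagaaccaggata
Gbp7: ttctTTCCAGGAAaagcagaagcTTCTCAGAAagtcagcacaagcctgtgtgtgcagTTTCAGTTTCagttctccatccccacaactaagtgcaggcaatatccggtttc
Irf1: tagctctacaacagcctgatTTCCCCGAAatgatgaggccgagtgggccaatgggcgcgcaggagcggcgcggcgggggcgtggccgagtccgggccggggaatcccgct

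The files held 6945 to 9876 barcodes and 117178809 to 127666928 UMIs (unique molecular identifiers, each 1 captured molecule) per library. After filters, 9054 untreated, 7626 croton oil and 6479 microneedle cells remained. Cells were taken as LCs when Cd74, H2-Aa, H2-Ab1 and H2-Eb1, which encode MHC class II proteins and their invariant chain, made up at least 2% of their UMIs and Epcam had at least 2 UMIs. This gave 8651, 5922 and 5295 LCs, with median depths of 11527, 12576 and 17342 UMIs. The rule marks a range and not a separate cell type: 120, 307 and 83 cells lay just inside it and 122, 310 and 83 just outside (1.5% to 2.5% of UMIs, or 1 or 2 Epcam UMIs). All 9 LC markers, among them Cd207 (langerin), were at or above 20 CPM (UMIs of a gene for every 1000000 UMIs of the cells summed) in the LCs of every library. Summed over 8 markers, keratinocyte RNA came to 254, 201 and 52.4 CPM in LCs of the untreated, croton oil and microneedle libraries. The 6 T cell markers summed to 4.37, 67.6 and 19.2 CPM there, and the 6 neutrophil markers to 160.7, 69.1 and 98.5 CPM. Mmp9 was the highest of the latter in each library, and S100a8 was at 0.0742, 18.3 and 9.13 CPM. The 9 monocyte/macrophage markers summed to 434.6, 280.8 and 270.6 CPM, most of it Apoe and Cd14, which were the 2 at 20 CPM or more. Between libraries, 32, 17 and 13 barcodes were shared, and none by all 3. Other classes were named from marker genes after joint clustering: 240, 219 and 97 keratinocyte-like cells, 212 croton oil and 394 microneedle neutrophil-like cells, and 384 microneedle monocyte/macrophage-like cells. Untreated and croton oil skin held at most 6 macrophage-like cells, and untreated skin 1 neutrophil-like cell, so these have no level here.

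In LCs of the microneedle library 9 members were at least 2-fold above the untreated level, led by Ly6a, Ifi44, Irf7 and Isg15, and in croton oil LCs 3 were: Ifitm2, Ifitm1 and Ly6a. Set against each other, microneedle LCs held more Ly6a, Ifi44 and Irf7 and croton oil LCs more Ifitm1 and Ifitm2. Levels are CPM of the UMIs summed over all LCs of a library. Of the 44 members, 20 reached 20 CPM in at least 1 library, and 24 stayed between 0 and 19.3 CPM in all. A difference is given as log2((CPM + 5)/(CPM + 5)), which understates changes of low genes, and was taken as a change when it was at least 2-fold in genes with 20 CPM or more in either library. After croton oil, 3 of 16 members compared were higher and 0 lower, where 5.5% of 6837 genes were higher and 5.53% lower. After microneedles, 9 of 19 members were higher and 0 lower, where 3.88% of 6703 genes were higher and 1.76% lower. Directly compared, 3 of 20 members were higher and 2 lower in microneedle than in croton oil LCs, against 1.04% and 1.63% of 6633 genes. The median log2 differences of the members were 0.45, 0.93 and 0.54 in these 3 comparisons, and those of all genes compared were -0.03, 0.03 and 0.06. Both treatments were set against the same untreated library. Through the 20 CPM rule, 6 of the 16 members entered only by their croton oil level and 9 of the 19 only by their microneedle level, which fixed their direction. Of the 10 members at 20 CPM or more in both libraries, 1 was higher after croton oil, and 2 of 10 after microneedles. In the direct comparison 4 members entered only by their microneedle and 1 only by its croton oil level, Ifi44, Irf7 and Ifitm1 among them, and of the 15 at 20 CPM or more in both libraries 1 was higher and 1 lower. Over all 44 members, with no rule on level, the medians were 0.19, 0.71 and 0.51. With other processing the croton oil median was 0.68 over LC-like clusters, 0.91 with a rule of 50 CPM and 0.76 with TMM scaling, with which 5 of 17 members were higher. With a rule of 50 CPM and with none, 4 of 8 and 15 of 44 members were higher after microneedles. In the direct comparison these counts were 1 of 9 and 7 of 44. The shares of all genes past 2-fold under these settings are not given here.

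**Figure D1:**
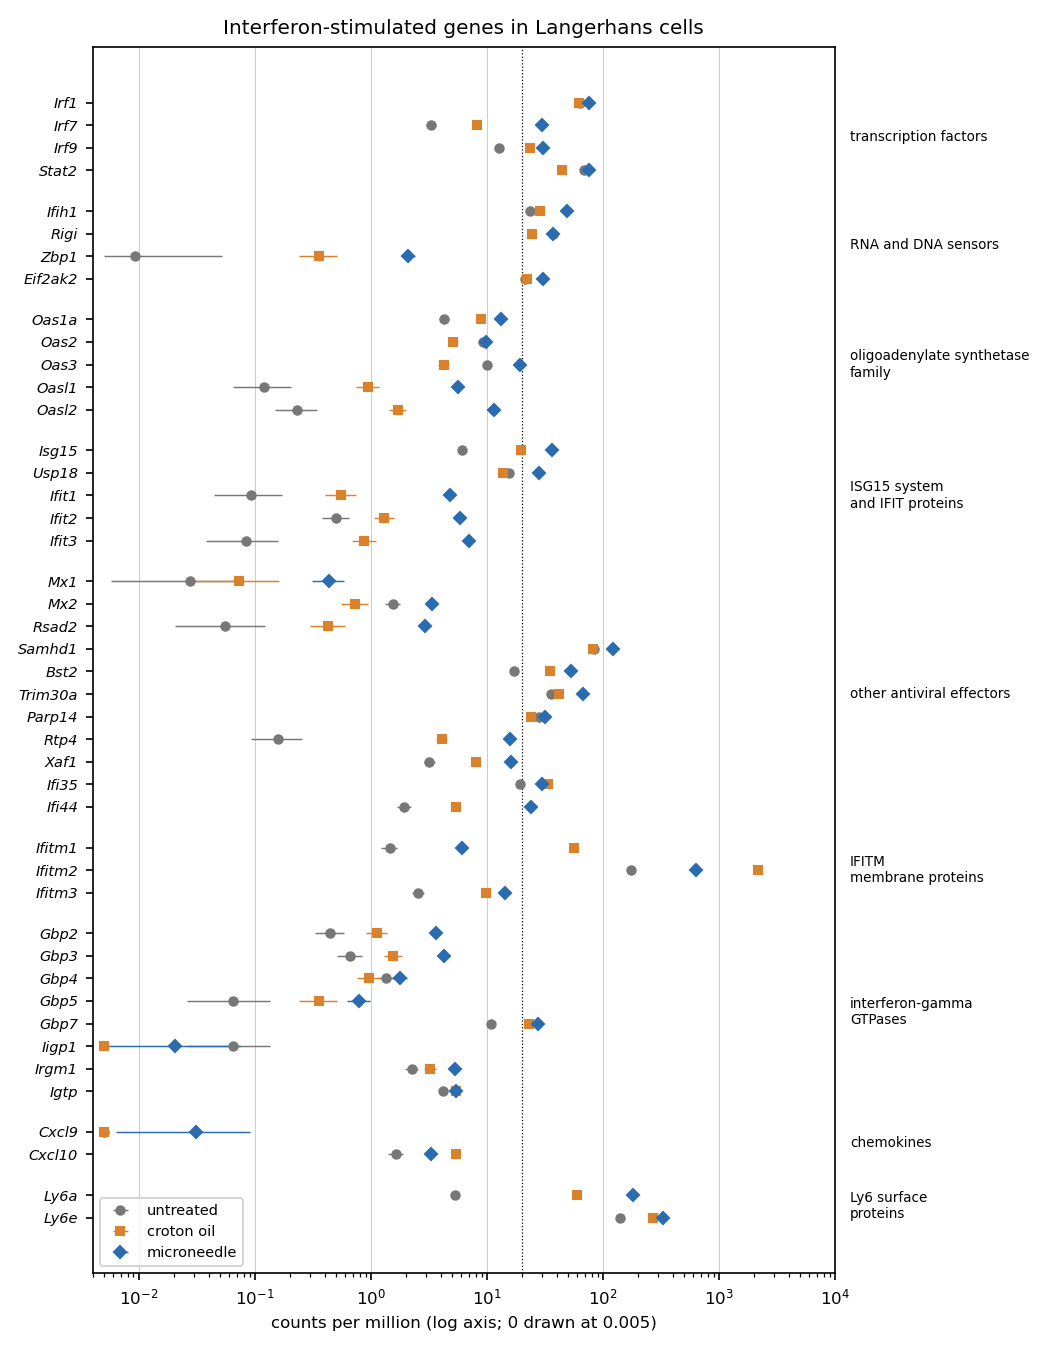
Level of each of the 44 members in Langerhans cells of the 3 libraries, in CPM on a log axis, grouped by role. Bars are 95% exact Poisson intervals (counting error only), and the dotted line marks 20 CPM. Ifitm2 is the highest member in each library, and 24 members stay left of the line in all 3.

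Among the transcription factors, Irf7, which amplifies type I interferon responses, differed most in both comparisons of microneedle LCs. Its level was 3.30 CPM in untreated LCs, 8.19 after croton oil and 29.7 after microneedles (95% interval of the last 28.6 to 30.8). The microneedle level was 8.99 times the untreated one (8.05 to 10.1) and 3.63 times the croton oil one (3.33 to 3.95). Irf9, the DNA-binding part of the STAT complex, was at 12.7, 23.5 and 30.3 CPM, a log2 difference of 1.00 for microneedles and 0.69 for croton oil. Stat2, its partner, was at 68.6 CPM in untreated LCs, 44.1 after croton oil and 75.4 after microneedles, and no pair of libraries differed 2-fold. Irf1, a factor that both interferon types induce, lay within a narrow range at 63.2, 62.4 and 75.2 CPM.

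None of the sensors of foreign nucleic acid passed the 2-fold rule on the log2(CPM + 5) scale. Ifih1 encodes MDA5, a sensor of long double-stranded RNA, and was at 23.5, 28.6 and 49.1 CPM in LCs of untreated, croton oil and microneedle skin, a log2 difference of 0.93 for microneedles and 2.09-fold as a plain CPM ratio. Rigi, which senses short double-stranded RNA, was at 36.9, 24.3 and 37.1 CPM. Eif2ak2 encodes the kinase PKR and was at 21.4, 22.3 and 30.4 CPM. Zbp1, a sensor of Z-form nucleic acids, was under 20 CPM throughout, at 0.00928, 0.357 and 2.09 CPM.

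Isg15, a ubiquitin-like protein that is attached to other proteins, was at 6.13 CPM in untreated LCs, 19.7 after croton oil and 36.3 after microneedles. Only the difference between microneedle and untreated LCs was a change under the rule (log2 1.89, 5.92-fold on the CPM ratio, 5.45 to 6.45). Croton oil LCs were 3.22 times the untreated level (2.94 to 3.53) but did not reach 20 CPM and were not counted. Usp18, the protease that removes ISG15 and restrains IFNAR signalling, was at 15.6, 13.7 and 27.9 CPM, so croton oil LCs did not exceed untreated ones in this gene. The IFIT proteins, which bind viral RNA, were under 20 CPM in all libraries, with the same order of levels. Ifit3 had 9 UMIs in untreated LCs, 71 after croton oil and 680 after microneedles, or 0.0835, 0.873 and 7.04 CPM. Ifit1 reached 4.82 CPM and Ifit2 5.90 CPM after microneedles. Ifit genes form a family of close copies, and reads may be divided between them.

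The 5 oligoadenylate synthetase genes, whose products activate an RNA-degrading enzyme, were all under 20 CPM in LCs and divided into different patterns. Oas1a had 4.27, 8.84 and 13.2 CPM in LCs of untreated, croton oil and microneedle skin. Oas3 was at 9.92 CPM in untreated LCs, 4.23 after croton oil and 19.3 after microneedles, and Oas2 at 9.28, 5.13 and 9.90. For these 2 genes the croton oil level was the lowest, at 0.43 times (0.38 to 0.48) and 0.55 times (0.49 to 0.62) the untreated level, although both were below the level set for counting. The OAS-like genes Oasl1 and Oasl2 were nearly silent in untreated LCs (0.121 and 0.232 CPM) and reached 5.61 and 11.5 CPM after microneedles.

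Of the 11 other antiviral effectors, 6 were compared between microneedle and untreated LCs, and of these Ifi44 and Bst2 were higher, against 3.88% of all genes. Both entered only by their microneedle level, which fixed their direction. Ifi44, a widely used marker of interferon exposure, was at 1.93 CPM in untreated LCs, 5.36 after croton oil and 24.1 after microneedles. Its microneedle level was 12.5 times the untreated level (10.9 to 14.5) and 4.5 times the croton oil level (4.06 to 5.0). Bst2 encodes tetherin, which holds budding virus on the cell surface, and was at 17, 34.7 and 53.1 CPM. Samhd1, which depletes the nucleotide pool that viruses need, was among the higher members at 82.8, 82.2 and 122.6 CPM, with no 2-fold difference. Trim30a, Parp14 and Ifi35 also stayed within 2-fold, with log2 differences between -0.20 and 0.83. Rtp4, a chaperone of membrane proteins, had 17 UMIs in untreated LCs (0.158 CPM), against 4.08 CPM after croton oil and 15.8 CPM after microneedles. Xaf1 was at 3.19, 8.09 and 16.1 CPM. Rsad2 (viperin) reached 2.93 CPM, Mx2 3.35 CPM and Mx1 0.435 CPM after microneedles, so these classical antiviral genes stayed low in LCs.

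The IFITM proteins, small membrane proteins that impede virus fusion, had their highest levels after croton oil in 2 of 3 cases. Ifitm2 was at 172.8 CPM in untreated LCs, 2177 after croton oil and 629.2 after microneedles. The croton oil level was 12.6 times the untreated one (12.4 to 12.8), and the microneedle level 3.64 times (3.58 to 3.70). Ifitm1 was at 1.45 CPM in untreated and 56.7 CPM in croton oil LCs, and at 6.06 CPM in microneedle LCs. Ifitm1 and Ifitm2 were the 2 members lower in microneedle than in croton oil LCs, with log2 differences of -2.48 and -1.78. Ifitm3 stayed low, at 2.55, 9.82 and 14.2 CPM, and its level in LCs could be given by free RNA of the other classes to 63.6%, 113.8% and 17.2% in the 3 libraries. For Ifitm1 and Ifitm2 in croton oil LCs the same estimate was 2.15% and 0.39%. The 3 genes are neighbours of similar sequence, so reads shared between them are a source of uncertainty.

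Ly6a (Sca-1) and Ly6e are glycolipid-anchored surface proteins induced by interferon. Ly6a was at 5.31 CPM in untreated LCs, 60.0 after croton oil and 179.5 after microneedles. The croton oil level was 11.3 times (10.4 to 12.4) and the microneedle level 33.8 times (31.1 to 36.8) the untreated one, and microneedle LCs were 2.99 times croton oil LCs (2.90 to 3.09). The part of the Ly6a level that free RNA could give was 30.9% in untreated LCs, 10.2% after croton oil and 0.30% after microneedles. Ly6e was at 139.6, 266.9 and 325.8 CPM, with log2 differences of 0.91 for croton oil and 1.19 for microneedles.

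The GTPases of the interferon-gamma group, which attack the vacuoles of intracellular microbes, were low in LCs. Gbp7 alone reached 20 CPM, with 10.8, 23.2 and 27.7 CPM over the 3 libraries, and the microneedle difference was a change (log2 1.05). Gbp2, Gbp3, Gbp4, Gbp5, Iigp1, Irgm1 and Igtp stayed at or below 5.43 CPM in every library. Igtp was at 4.20, 5.43 and 5.39 CPM and Gbp2 at 0.445, 1.13 and 3.63 CPM. Gbp genes are close copies of each other, and their counts may be shared. The chemokine Cxcl9, a target of interferon-gamma, had 0 UMIs in untreated and croton oil LCs (3 UMIs would be 0.0278 and 0.0369 CPM) and was at 0.0310 CPM in microneedle LCs. Cxcl10, which both interferon types induce, was at 1.64, 5.38 and 3.32 CPM.

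Most other genes of the pathway did not pass the 2-fold rule in LCs or were under 20 CPM and not compared. Most genes of the files did not pass it either. Of 10 interferon ligand genes, none reached 20 CPM: Ifnk, the keratinocyte interferon, had the highest count with 73, 37 and 40 UMIs, Ifnb1 had 1, 0 and 0, and Ifng had 0 in all 3 libraries. The receptor chains were present throughout. Ifnar1 was at 149.8, 142.1 and 156.1 CPM in LCs of untreated, croton oil and microneedle skin, Ifnar2 at 48.5, 90.7 and 71.9 CPM. The interferon-gamma receptor chains Ifngr1 and Ifngr2 were at 31.1, 52.5 and 37.9 CPM and at 177.2, 188.8 and 185.3 CPM. Of 11 receptor, kinase and STAT genes, 8 were compared and none differed 2-fold in any comparison. The same held for the 5 compared of 14 further sensors and regulators. Of all genes compared, 5.5% were higher and 5.53% lower after croton oil, 3.88% and 1.76% after microneedles. In the direct comparison these shares were 1.04% and 1.63%, so 0 among so few genes is near the background.

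Of the 5 brakes on the pathway, all compared, Socs3 was the one that changed. It was at 23.6 CPM in untreated LCs, 111.8 after croton oil and 36.4 after microneedles, a log2 difference of 2.03 for croton oil and -1.50 for microneedles against croton oil. So 1 of 5 was higher after croton oil and 1 of 5 lower in the direct comparison, against 5.5% and 1.63% of all genes compared. SOCS3 mainly restrains cytokines that signal through gp130 and STAT3. Stat3 stood at 169.7, 330.9 and 284.0 CPM, a log2 difference of 0.94 for croton oil. Socs1, the main inhibitor of interferon-gamma signalling, was at 49.5, 83.2 and 43.6 CPM, and Pias1 at 178.7, 96.8 and 147.8 CPM, both within 2-fold.

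Among 55 further interferon-induced genes, 1 of 19 compared was higher and 1 lower after croton oil, 2 of 22 were higher after microneedles, and 1 of 21 was higher in microneedle than in croton oil LCs. Of all genes, 5.5% were higher and 5.53% lower after croton oil, 3.88% higher after microneedles and 1.04% higher in the direct comparison, so the croton oil counts were near the background. Each of these genes was at 20 CPM or more only in the library where it was higher, which fixed its direction, and of the 12, 14 and 16 genes at 20 CPM or more in both libraries none differed 2-fold. The list's median log2 differences were 0.19, 0.50 and 0.42. After croton oil, Ifi27 was higher (16.2 to 43.5 CPM) and Gbp8 lower (20.5 to 6.79 CPM). After microneedles Ifi27l2a was at 24.0 CPM, against 3.07 in untreated and 5.70 in croton oil LCs, and so was higher than in either. Ifi205, a member of the DNA-binding IFI200 family, was at 12 CPM in untreated and 34.2 in microneedle LCs, a log2 difference of 1.21. Its relatives Ifi204 (15 to 33.7 CPM) and Ifi211 (14.5 to 31.6 CPM) did not pass the rule on the log2(CPM + 5) scale, with log2 differences of 0.95 and 0.91. Slfn5, a nuclear protein of the Schlafen family, was at 55.4, 63.8 and 114.5 CPM (log2 0.98 for microneedles). Parp9 was at 23.4, 38.1 and 47.5 CPM and Tdrd7 at 34.4, 21.2 and 36.1 CPM.

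**Figure D2:**
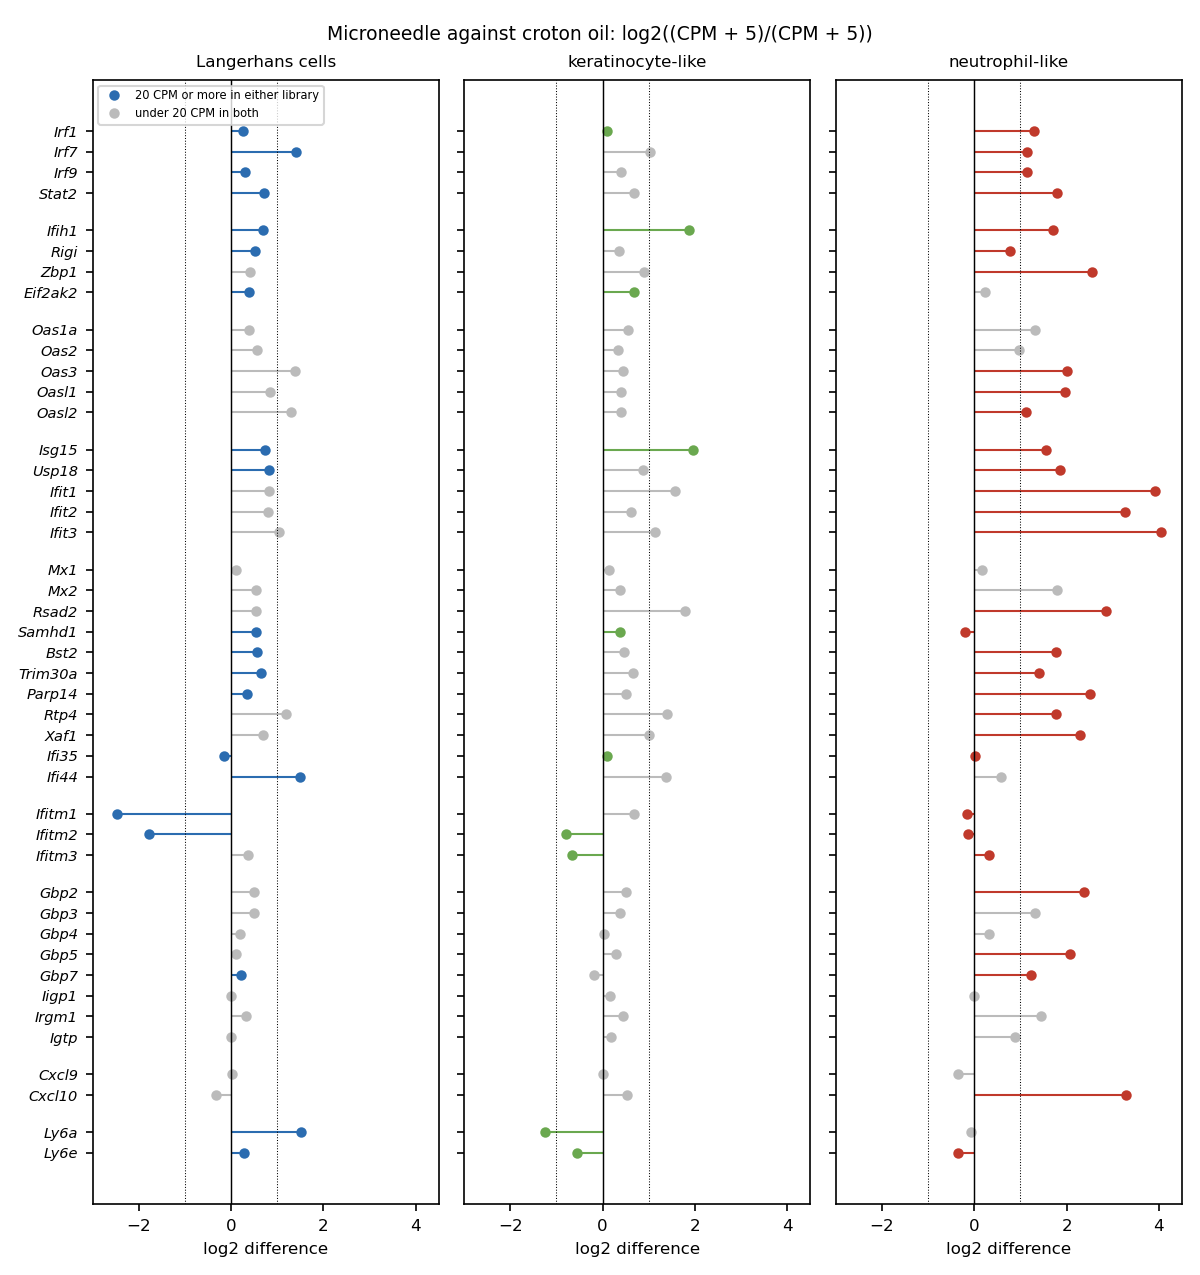
Difference between the microneedle and croton oil libraries for each member, as log2((CPM + 5)/(CPM + 5)), in Langerhans cells, keratinocyte-like and neutrophil-like cells. Grey points are under 20 CPM in both libraries, and dotted lines mark 2-fold. Ifitm1 and Ifitm2 fall left of the lines in Langerhans cells, where Ly6a lies right of them, and 24 of the 31 members compared lie right of them in neutrophil-like cells.

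In microneedle skin most members compared were higher in macrophage-like and in neutrophil-like cells than in LCs. A core of 17 members typical of type I interferon responses (Isg15, Ifit1, Ifit2, Ifit3, Ifi44, Irf7, Mx1, Mx2, Oas1a, Oas2, Oas3, Oasl1, Oasl2, Rsad2, Usp18, Xaf1 and Rtp4) summed to 233.9 CPM in microneedle LCs (230.9 to 237.0), 2540 CPM in neutrophil-like cells (2463 to 2619) and 3492 CPM in monocyte/macrophage-like cells (3422 to 3562). LCs nevertheless held 61.3% of the core UMIs of these classes and the keratinocyte-like cells together, since they were the most numerous, with 26.4% in macrophage-like and 11.2% in neutrophil-like cells. Against macrophage-like cells, 0 of 41 members compared were 2-fold higher in LCs and 31 were lower, where 17.9% and 18.4% of 7383 genes were. Of these 41, 22 entered only by their level in macrophage-like cells, which fixed their direction, and of the 19 at 20 CPM or more in both classes 11 were lower in LCs. Against neutrophil-like cells, 4 of 34 were higher and 21 lower in LCs, where 47.8% of genes were higher and 19.6% lower. Of these 34, 15 entered only by their neutrophil level, 3 only by their LC level, and of the 16 at 20 CPM or more in both classes 1 was higher and 7 lower in LCs. The 4 higher in LCs were Ly6a (179.5 against 7.40 CPM), Ifi44 (24.1 against 2.47), Eif2ak2 (30.4 against 5.55) and Ly6e (325.8 against 135.1), of which the first 3 had their direction fixed in this way. In the croton oil library 4 of 23 were higher and 11 lower in LCs than in neutrophil-like cells, where 42.8% of genes were higher and 19.1% lower. Of these 23, 7 entered only by their neutrophil level and 6 only by their LC level, and of the 10 in both 4 were lower in LCs.

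In macrophage-like cells Rsad2 was at 830.2 CPM, Isg15 at 627.3, Ifi44 at 434.8 and Irf7 at 286.2. Several members that LCs hardly held were clearly present there: Mx1 was at 141.8 CPM, Zbp1 at 183.1, Ifit2 at 223.7 and Cxcl10 at 210.8. Cxcl9 was lower, with 29 UMIs and 10.4 CPM. Ifitm3 was the highest member at 1181 CPM, while Ifitm1, at 102.3 CPM, could come to 88.2% from free RNA of the other classes. Ly6a was at 156.6 CPM, close to the 179.5 CPM of the LCs, and Ifi27l2a at 1228 CPM.

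**Figure D3:**
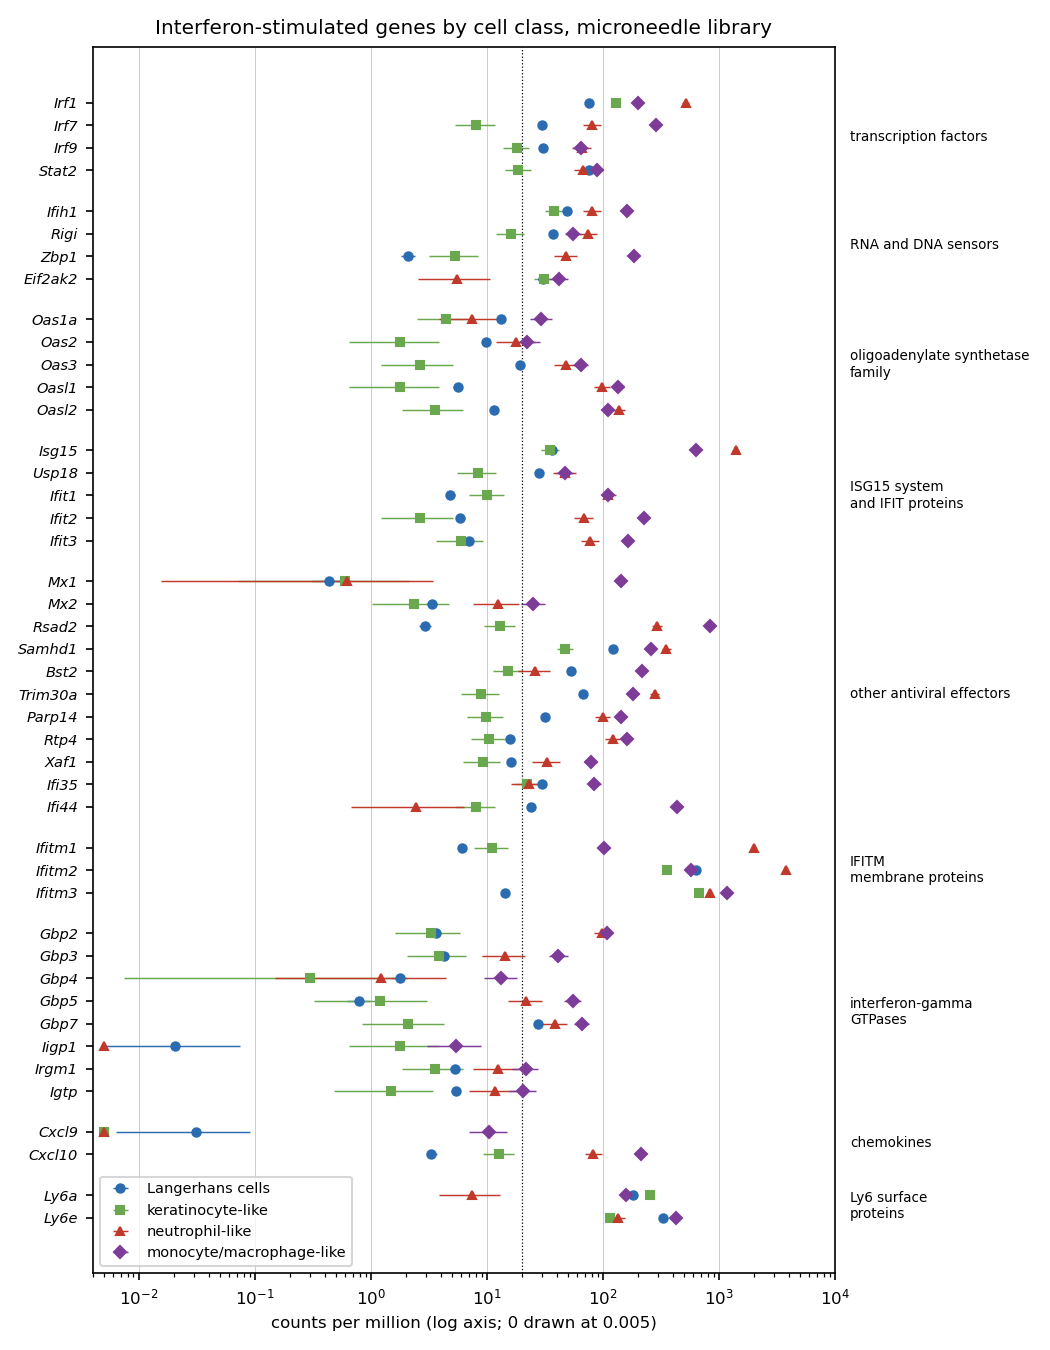
Level of each member in the microneedle library by cell class, in CPM on a log axis with 95% exact Poisson intervals (counting error only). Macrophage-like and neutrophil-like cells lie to the right of Langerhans cells for most members, among them Rsad2 and Isg15.

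Neutrophil-like cells, the 1 infiltrating class that both treated libraries held in numbers, carried more of the set after microneedles. Of 31 members compared, 24 were higher and 0 lower in the microneedle library, where 11.8% of 5343 genes were higher and 11.8% lower. Of these 31, 14 entered only by their microneedle level, which fixed their direction, and of the 17 at 20 CPM or more in both libraries 10 were higher and 0 lower. The median log2 difference was 1.77 for the 31, 1.32 over all 44 members and -0.09 for all genes compared. Isg15 was at 469.9 CPM after croton oil and 1388 CPM after microneedles, Rsad2 at 36.0 and 291.8, and Ifit1 at 2.67 and 111.0. Ifit3 had 0 UMIs after croton oil and 77.7 CPM after microneedles, at least 19.4-fold higher against a floor of 3 UMIs in the summed croton oil cells (4.0 CPM). The lower limit of the exact 95% interval of that ratio was 15.6-fold. With Ifit3 at that bound the median stayed at 1.77. The IFITM genes were high in both libraries: Ifitm2 was at 4176 and 3790 CPM and Ifitm1 at 2229 and 2006 CPM. The core summed to 684.8 CPM (626.8 to 746.7) after croton oil. Median depth was 3041 UMIs in croton oil and 3270 in microneedle neutrophil-like cells.

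In keratinocyte-like cells, the neighbours of LCs in the epidermis, 4 members were higher after croton oil than in untreated skin. Of 10 members compared, 4 were higher and 3 lower than in the untreated library, where 12.9% of 7619 genes were higher and 14.3% lower. The 3 lower ones entered only by their untreated level, which fixed their direction, and of the 6 at 20 CPM or more in both libraries 4 were higher and 0 lower. Ifitm3 was at 115.2 CPM in untreated cells, 1071 after croton oil and 673.9 after microneedles, and Ly6a at 116.4, 602.7 and 252.1 CPM. Irf1 was at 48.8, 118.9 and 128.1 CPM, and Ifitm2 was the fourth member higher after croton oil. Irf9, Stat2 and Ifih1 were the 3 lower ones, and Ifih1 was at 23.2, 6.65 and 37.7 CPM. After microneedles, 3 of 12 members were higher than in untreated cells and 0 lower, against 6.8% and 6.43% of 7592 genes. In microneedle against croton oil cells 2 of 10 were higher (Isg15 and Ifih1) and 1 lower (Ly6a), against 6.24% and 1.31% of 7407 genes. Isg15 and Ifih1 entered only by their microneedle level, and of the 7 members at 20 CPM or more in both libraries 0 were higher and 1 lower.

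Free RNA limits what can be read from the keratinocyte-like cells. Judged by Cd207, H2-M2 and Cd74, RNA of LCs was present in them at 15.1%, 7.84% and 18.5% of its level in LCs. The neutrophil part was less certain. Its 5 defining genes gave 0.0051% to 2.92% (median 1.92%) in croton oil and 0.19% to 1.64% (median 1.41%) in microneedle keratinocyte-like cells. Both medians were those of Cxcr2, which was at 12.5 CPM in untreated keratinocyte-like cells, with 1 neutrophil-like cell in that library. Lower rates would give smaller shares, and the estimates here use the medians. At the median rates free RNA could give 75.2% of the Isg15, 58.2% of the Samhd1 and 53.8% of the Ly6e level in microneedle keratinocyte-like cells. For their core level of 127.8 CPM the share was 61.9%. In croton oil the estimate exceeded the core level measured (114.3% of 17.3 CPM). For Ifitm3 it was at most 2.13% in the 3 libraries, and for Ly6a at most 13.2%. For Ifitm2 it was 11.5% in untreated cells, 40.3% after croton oil and 47.6% after microneedles. With free RNA subtracted at the median rates, Ifitm2 was at 200.5 CPM in untreated and 371.9 CPM in croton oil cells. It was then no longer 2-fold (log2 0.88), which left 3 members higher after croton oil. Subtraction at other rates was not run. After microneedles against untreated cells the subtraction left 2 members higher, without Ly6a (log2 0.89), and made Irf9, Stat2 and Ly6e 2-fold lower, and against croton oil cells 2 were lower, Ly6a and Ly6e. The same subtraction left 24 of 31 members higher in neutrophil-like cells after microneedles. In LCs the core could come from free RNA to 0.96%, 0.63% and 1.90%. In the same cells, members at 20 CPM or more had at most 1.85% in untreated and 3.1% in microneedle LCs, and Ly6a had the highest share in croton oil at 10.2%.

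Core UMIs were unevenly spread over the LCs of the treated libraries. To compare libraries of different depth, each LC was thinned to 3000 UMIs, which left 8549 untreated, 5890 croton oil and 5236 microneedle cells and dropped 102, 32 and 59 shallower ones. The mean number of core UMIs per cell was 0.174, 0.247 and 0.731. The ratio of variance to mean was 1.16, 2.75 and 4.36, where 1 is the value for counts spread evenly by chance. Cells with 3 or more core UMIs made up 0.316% of untreated (exact 95% interval 0.208 to 0.459), 1.34% of croton oil (1.06 to 1.67) and 8.25% of microneedle LCs (7.52 to 9.03). Without thinning these shares were 5.48%, 12.2% and 35.7%. The untreated share over LC-like clusters and the croton oil share in its largest cluster were lower, with values in the closing section. At the same depth 2.53% of 79 microneedle keratinocyte-like cells (0.31 to 8.85), 47.6% of neutrophil-like cells and 64.3% of macrophage-like cells had 3 or more, from median depths before thinning of 26572, 3270 and 6673 UMIs. In croton oil the share of neutrophil-like cells was 22.9%. Thinning dropped 146 of 394 microneedle and 103 of 212 croton oil neutrophil-like cells and 90 of 384 macrophage-like cells, so these shares cover the deeper cells. Unthinned they were 51.5%, 23.1% and 72.4%.

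**Figure D4:**
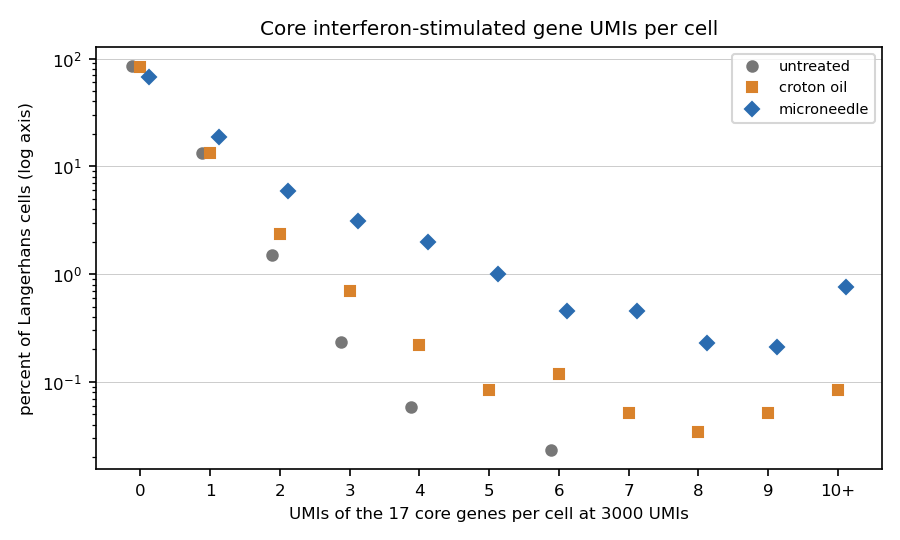
Percent of Langerhans cells (log axis) with a given number of UMIs of the 17 core members, after each cell was thinned to 3000 UMIs. No untreated cell had more than 6 core UMIs, while 0.0849% of croton oil and 0.764% of microneedle cells had 10 or more.

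Members outside the core were higher in the same cells. In the 432 microneedle LCs with 3 or more core UMIs, Ly6a was at 593.4 CPM, against 262.1 CPM in the 1282 cells with 1 or 2 and 103.6 CPM in the 3522 cells with none. Bst2 was at 199.1, 60.8 and 33.0 CPM in these groups, and the 8 GTPases together at 135.0, 55.6 and 35.8 CPM. Ifitm2 was at 1039, 772.0 and 580.3 CPM and Samhd1 at 219.1, 131.0 and 101.3 CPM. Ifi27l2a, which is no member, was at 83.3, 30.4 and 13.8 CPM. Irf1 hardly differed, at 84.9, 76.7 and 78.1 CPM. Mean depth before thinning was 17854, 18724 and 18399 UMIs.

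RNA of the other classes was measured in the same 432 cells. S100a8, a neutrophil gene at 27618 CPM in neutrophil-like cells, was at 37.0 CPM in them and 3.98 CPM in cells with no core UMI. Krt14, a keratinocyte gene, was at 10.0 and 18.7 CPM. At the level of their defining genes, neutrophil RNA could give 3.64 CPM and macrophage RNA 3.30 CPM of the 1728 core CPM in these cells. Taking the defining gene with the highest level instead, the parts were 6.84 and 118.7 CPM. In the 79 croton oil LCs with 3 or more core UMIs, Ly6a was at 232.1 CPM against 54.5 in cells with none, and Bst2 at 219.4 against 30.7. Ifitm2 was at 2274 and 2344 CPM in these cells, so it did not follow the core there.

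Ifitm1 was spread very unevenly over croton oil LCs. After thinning, 6.96% of them had an Ifitm1 UMI (6.32 to 7.64), with 2.63 UMIs per cell that had any, and the variance was 6.04 times the mean. The 5% of cells with the most held 89.3% of its UMIs, against 14.2% for Ifitm2, which was found in 96.3% of cells. In the 116 cells with 3 or more Ifitm1 UMIs, Ifitm2 was at 4046 CPM against 2268 in cells without Ifitm1, and Il1b, an inflammatory cytokine, at 1261 against 732.8 CPM. Cd207 was at 181.0 against 323.4 CPM. S100a8 was lower in these cells, at 8.62 against 18.4 CPM. In microneedle LCs the 93 cells with 1 or 2 Ifitm1 UMIs had 111.1 CPM of S100a8, against 6.03 CPM in cells without Ifitm1, and the part of neutrophil RNA in that Ifitm1 signal was not tested.

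The core level also differed between clusters of LCs, as the plot by cluster shows. The joint clustering grouped cells largely by library: the main croton oil cluster (number 0) held 4700 of the croton oil LCs, the main microneedle cluster (number 1) 3964 of the microneedle LCs, and 2 mainly untreated clusters (2 and 3) held 3798 and 3758 untreated LCs. In croton oil LCs the core was at 71.2 CPM in cluster 0. The 102 croton oil LCs that fell into cluster 1 had 442.9 CPM, above the 245.1 CPM of the microneedle cells of that cluster. Their Ifit3 was at 28.6 CPM against 0.234 CPM in cluster 0, Ifi44 at 59.3 against 3.69, and Ifitm1 at 18.8 against 58.2. Of the leading genes of the 2 clusters, C1qc was at 176.5 CPM in these cells, against 176.9 in cluster 0 and 38.5 in microneedle cells of cluster 1. Between the 2 clusters in the same order lay Ifitm2 (1481, 2263 and 630.4 CPM), Mgl2 (107.4, 323.4 and 14.2) and Neb (58.6, 9.35 and 117.5). None of these 102 barcodes occurred in another library, and the part of RNA or cells carried over between libraries in this level was not tested otherwise. Conversely, the 251 and 223 microneedle LCs in clusters 2 and 3 had 52.1 and 61.6 CPM, near the 58.7 and 52.8 CPM of the untreated cells there. Cluster 4, led by heat-shock genes, had 125.6 CPM in croton oil, 305.2 in microneedle and 71.3 in untreated LCs. The clusters were made from the same cells and genes, so these differences are a description.

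**Figure D5:**
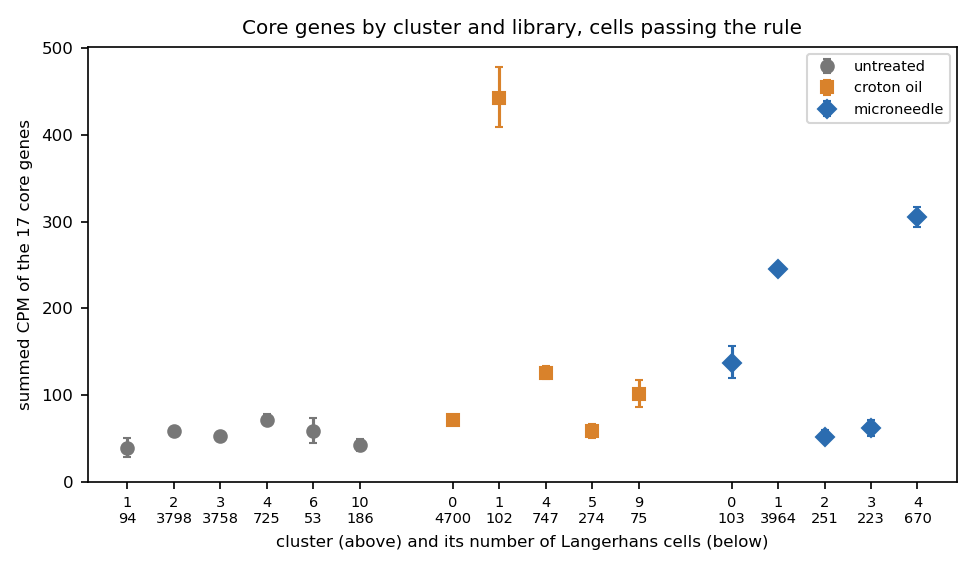
Summed level of the 17 core members in Langerhans cells, in CPM, by cluster and library, with 95% exact Poisson intervals and the number of cells under each cluster number. The croton oil cells in cluster 1 are highest at 442.9 CPM, while microneedle cells in clusters 2 and 3 sit at the untreated level.

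Some LC-like cells were outside the rule for LCs: 158 of 8743 untreated, 1125 of 6954 croton oil and 293 of 5568 microneedle cells of LC-like clusters. They were rich in Ccr7 and Fscn1, genes of dendritic cells that leave the tissue. In croton oil these were at 846.9 and 1391 CPM outside against 21.4 and 17.7 CPM inside the rule. In microneedle cells the core was at 478.3 CPM outside against 234.4 CPM inside, and Isg15 at 129.5 against 36.3. In croton oil cells the core was at 101.4 against 83.9 CPM, with Isg15 at 56.5 against 19.5 CPM, and the other 16 core members were lower outside the rule, at 44.9 against 64.4 CPM. Among those, Irf7 was at 2.89 against 8.12 CPM and Ifi44 at 1.88 against 5.38. In untreated cells the core was at 47.7 CPM outside and 56.4 inside. Ly6a and Ly6e were lower outside the rule in both treated libraries. Ly6a was at 12.9 against 54.7 CPM in croton oil and 37.0 against 179.6 CPM in microneedle cells, and Ly6e at 47.4 against 264.7 and at 51.8 against 326.0 CPM. Ifitm2 was at 1519 against 2201 CPM in croton oil and 429.3 against 629.7 CPM in microneedle cells.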

How the data were processed

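The deposited values were UMI counts per gene and cell, made by the authors from 10x 3′ libraries and not normalized; Cell Ranger 8.0.0 is named per the file headers, and Cell Ranger 8.0 and GRCm39 per the submitters' processing notes. A 3′ count does not scale with transcript length, but capture can differ between genes.

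Cells with at least 500 genes and at most 10% mitochondrial UMIs were kept. Scrublet's automatic threshold marked 1, 0 and 0 cells and so had not worked; the highest-scoring 0.8% per 1000 cells were removed instead (773, 532 and 376). Cells were clustered jointly (scanpy 1.11.5, leidenalg 0.10.2; 2000 variable genes, 30 components, 15 neighbours, resolution 0.5). Other classes were named by fixed markers, with a naming rule set after the clusters were seen: a marker at 20 CPM or more and at least 0.2 of its highest level, and at least 3 markers and a share of 0.5 of the list. A cluster whose 10 leading genes held more markers of another class was left unnamed; T cells lay in such a cluster of 237 cells. Cells passing the LC rule were taken out of the other classes, and classes under 50 cells were not used.

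UMIs were summed per library and class, with no test, since each group was 1 library. Intervals are exact (Poisson for levels, binomial for shares and ratios, 95%). Free RNA in a class was estimated from the median level of a source's defining genes there, relative to the source. Promoters came from a RefSeq table of build GRCm38.p6, and no other coordinates were used. Named genes were the 8 members with the largest microneedle against croton oil difference in LCs, the 6 largest in each other comparison, the 6 highest members, the ligands, receptors and the 6 largest differences per comparison of a list of 95 pathway genes, 1 further gene of which is not reported here; members under 20 CPM, other classes, sensors and genes of the cell groups were named outside that rule, after their values were seen. Members and lists were chosen with earlier results of these data known. The scripts were tested on simulated data. TMM factors were from edgeR 4.0.16. Alternatives are given in the closing section.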

Additional observations from a re-analysis of the deposited data

Results flagged for a closer look

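Ly6a differed in opposite directions between microneedle and croton oil skin in 2 classes. In LCs its log2 difference was 1.5 (179.5 against 60.0 CPM), and in keratinocyte-like cells it was -1.24 (252.1 against 602.7 CPM). Each value rests on 1 library per group, and the difference between the classes was not tested.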

How the results depend on the processing

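The 3 comparisons of LCs and the shares of cells were recomputed under other settings, 1 at a time, and the comparisons between classes and of pathway genes were not; all were planned except the use of both large untreated clusters, which was chosen after seeing the data, as was the subtraction of free RNA in other classes. The median log2 difference of the members for croton oil against untreated LCs (0.45) was 0.68 over LC-like clusters, 0.42 in the largest cluster of each library, 0.62 with a stricter LC rule (4% and 4 UMIs), 0.68 without doublet removal, 0.44 with both large untreated clusters, 0.52 with a pseudocount of 1, 0.91 and 0.19 with a filter of 50 CPM and none, 0.76 with TMM scaling, 0.65 without mitochondrial and ribosomal protein genes in the total and 0.46 with free RNA subtracted. For microneedle against untreated (0.93) it was 0.86 in the largest clusters, 0.90 with the stricter rule, 0.90 without doublet removal, 1.03 with a pseudocount of 1, 1.01 and 0.71 with 50 CPM and no filter, 0.90 with TMM and 0.84 without mitochondrial and ribosomal genes. For microneedle against croton oil (0.54) it was 0.57 over LC-like clusters, 0.62 in the largest clusters and with both untreated clusters, 0.50 with the stricter rule, 0.52 without doublet removal, 0.58 with a pseudocount of 1, 0.55 and 0.51 with 50 CPM and no filter, 0.41 with TMM and 0.53 with free RNA subtracted. TMM moved the median of all genes from -0.03 to 0.08 for croton oil against untreated and from 0.06 to -0.07 for microneedle against croton oil. The count of members higher after croton oil was 5 of 17 with TMM. After microneedles it was 4 of 8 with 50 CPM and 15 of 44 with no filter. Against croton oil it was 1 of 9 and 7 of 44, as fewer or more genes were compared. The share of LCs with 3 or more core UMIs was 0.187% in untreated LC-like clusters and 0.748% in croton oil when cut to the largest cluster or set beside both untreated ones. The causes were not tested. In the main thinning, croton oil clusters 1 and 4, which that cut leaves out, had 16.2% and 2.84% such cells, against 0.876% in cluster 0. The share was 0.763%, 2.57% and 13.6% when thinned to 5000 UMIs, 5.48%, 12.2% and 35.7% unthinned, and 0.0234%, 0.424% and 3.13% for 5 or more UMIs. Among the 12 named members in LCs, the 15 changes counted gave 150 values under the 10 settings that can move a log2 value, and all 150 were still 2-fold in the same direction. Changes of these 12 that were not counted passed 2-fold in 6 cases, among them Ifitm1 for microneedle against untreated (log2 0.78, and 1.30 without doublet removal). The 12 were picked for large differences or high levels. Irf9 and Gbp7, the changes counted after microneedles that lay nearest the cut, were outside these 12, so their stability is not covered. No paired analysis was possible because each group was 1 library, and for the same reason none could be left out. Members at a few UMIs, such as Cxcl9, Mx1 and Iigp1 in LCs, are limited by depth.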
